A study of Rattus norvegicus with 6 samples.

Results

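The MAP kinases, the kinases that act above them and a few that they activate were described here as RNA in pancreatic islets of 3-month-old and 12-month-old rats. A gene was a member if its symbol was Mapk, Map2k, Map3k or Map4k followed by digits alone, or if it was Mapkapk2, Mapkapk3, Mapkapk5, Rps6ka1, Rps6ka2 or Rps6ka3. RefSeq holds 49 rat genes with such a symbol. On the arrays, 34 of them had a probe that could be named through its mRNA accession, out of 13888 genes named in this way, and 30 were tested, out of 11189, because the scanner software marked them as well above background on at least 3 of 6 arrays. The symbols Map3k2, Map3k5, Map3k9, Map3k10, Map3k15, Map3k19, Map3k20, Map3k21, Map4k2, Map4k5, Mapk4, Mapk7, Mapk8, Rps6ka2 and Rps6ka3 had no probe named here, so that 15 genes, JNK1 among them, were not analysed here. Both groups were male Wistar rats, one at an age of 3 months and the other of 12 months, with no treatment named in the labels, and each was measured on 3 one-colour arrays hybridised with Cy3-labelled islet RNA. The RNA of each age came from islets of 3 rats, so that p-values measure the spread between the arrays of these few animals.

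MAP kinase signalling runs through tiers of protein kinases, each of which phosphorylates the next. A MAP4K activates a MAP3K, a MAP3K activates a MAP2K, and a MAP2K phosphorylates a threonine and a tyrosine in the activation loop of a MAP kinase. The MAP kinase then acts on transcription factors and on further kinases such as RSK and MK2. In beta cells the ERK branch is known to respond to glucose and growth factors, and the JNK and p38 branches to cytokines and other stress. The activity of these kinases is set mainly by phosphorylation, and RNA levels do not report on it.

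The RNA carried the islet hormones at both ages. Insulin 1 (*Ins1*) had a log2 signal of 18.67 ± 0.22 at 3 months and 18.77 ± 0.08 at 12 months, and somatostatin (*Sst*) of 17.84 ± 0.20 and 18.16 ± 0.14 (mean ± SD, n = 3 each). The acinar enzyme *Cpb1* had 18.32 ± 0.06 and 18.45 ± 0.03, so that exocrine RNA was present in both groups. None of 10 acinar markers passed the test of age. Each age was scanned in a session of its own, and effects of the scan cannot be told apart from those of age. Negative control spots had a median signal of 29.5 to 31 at 3 months and 89.5 to 91 at 12 months, and 73.0% to 77.4% of probes against 59.5% to 64.2% were well above background. All of 10 tested nerve and Schwann cell markers were lower at 12 months, 3 of them by the adjusted test. Summed over the 9 with a value on every array, their linear signal was 10328 to 16669 at 3 months and 4676 to 6769 at 12 months. All of 7 stellate and mesenchymal markers were higher, 1 by the adjusted test, and the sum over 6 of them was 9964 to 17554 and 26380 to 66047. Of 7 endothelial markers 6 were lower at 12 months, with sums of 57241 to 75359 and 31616 to 53319, and 1 was called lower. Of 9 beta cell markers 7 were higher at 12 months, 2 of them by the adjusted test (*Slc2a2* and *Slc30a8*). The lower ones were *Ins2* (difference -0.12) and *Nkx6-1* (-0.22). The sums over the 9 were 830962 to 975774 and 1055720 to 1202510. These sums rest mostly on *Ins1*, *Ins2* and *Iapp*, with differences of 0.10, -0.12 and 0.95, none of them called. All of 9 markers of other endocrine cells were higher, 1 by the adjusted test. None of the 4 duct, 8 immune and 2 red blood cell markers passed it. In RNA from whole islets, fewer cells of a type and less RNA per cell cannot be told apart. The part of these markers in the differences below was not tested.

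None of the 30 tested kinases differed between the ages by the adjusted test, but 16 of them had 3 values at one age that lay entirely above the 3 at the other. *Map3k13*, *Mapk9*, *Map2k6*, *Map3k12* and *Map4k3* were between 1.95-fold and 3.56-fold higher at 12 months. *Map3k1*, *Map4k1* and *Rps6ka1* were between 1.80-fold and 3.90-fold lower. The test was limma on quantile-normalised log2 signals, a scaling that gives all arrays the same distribution of values, with Benjamini-Hochberg adjustment over 17941 probes. At an adjusted p under 0.05, limma called 0 of the 30 kinases against 7.86% of all tested genes. An unadjusted limma p under 0.05 was found for 10 of the 30, against 3419 of all 11189 genes. The smallest adjusted p among the 30 kinases was 0.0619, for *Map4k3*. At the threshold by which the study listed changed genes, more than a 2-fold difference at an unadjusted p below 0.05, 5 were called against 19.4% of all genes. The p was limma's here. The methods' paired t-test was run on the same values, with arrays paired by number. The 12-month array that has no number in its label was set against the array left over. That test called 1 of the 30 at this threshold, and the share of all genes that it called is not given here. Of the 5 called by limma, *Map3k13*, *Map2k6* and *Mapk9* were higher (9.80% of all genes) and *Map3k1* and *Map4k1* lower (9.64% of all genes). The 16 with groups that did not overlap compare with 39.1% of all genes, 7 of them being higher (17.0% of all genes) and 9 lower (22.1% of all genes). The difference was above 0 for 14 of 30, against 43.5% of all genes, and its median was -0.10 against -0.13 over all genes.

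The share called at either threshold was under that of all genes, and the share without overlap was above it. With the arrays shifted to a common 75th percentile in place of quantile normalisation, the median of all genes moved to -0.34 and that of the kinases to -0.29, and 12 of 30 differences were above 0. Leaving out 1 array at a time gave a median of the kinases between -0.15 and -0.015, the latter without 3-month array 2. With 3 arrays per age there are 20 arrangements of the labels, so that the smallest p of a two-sided exact permutation test is 0.1. Groups that do not overlap always give this p, so that it adds nothing to the count of 16.

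**Figure D1:**
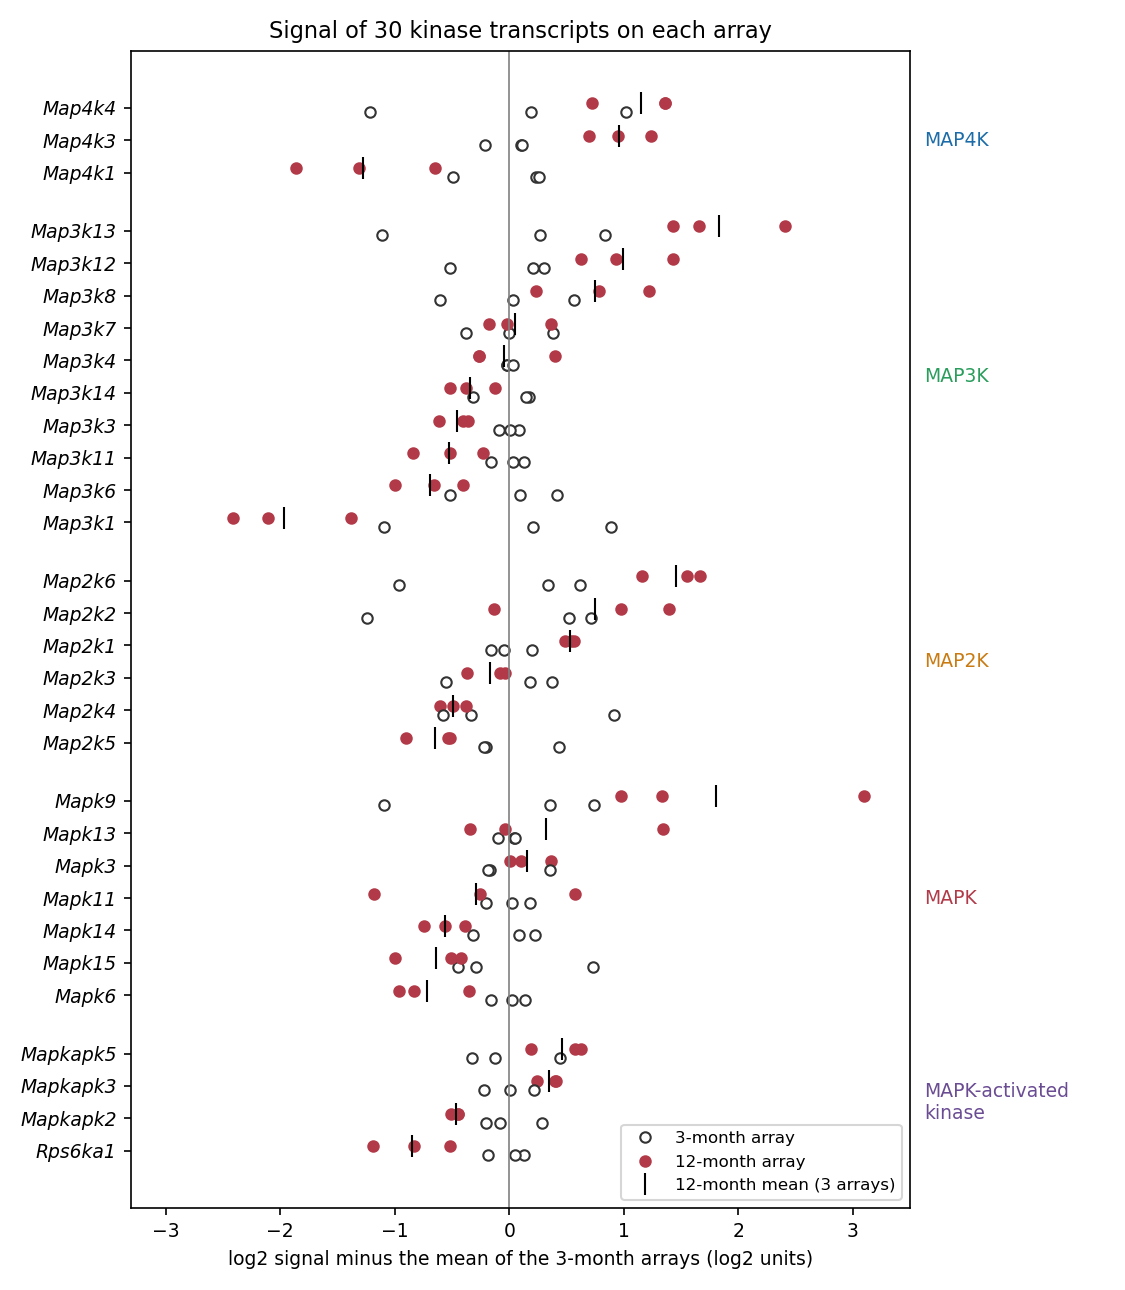
Log2 signal of the 30 tested kinase transcripts on each of 6 arrays, with the mean of the 3-month arrays set to 0 for every gene. Open circles are 3-month arrays, filled circles 12-month arrays, the short black line is the 12-month mean, and the genes are ordered by tier and by difference. The groups separate without overlap for 16 of 30 genes, while the values within an age spread widely in *Map4k4*, *Map2k2* and *Mapk9*.

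The MAP4K tier had 3 measured members, all of them tested, and they did not share a direction. *Map4k1* encodes HPK1, a kinase best known from blood cells. Its log2 signal was 10.96, 10.24 and 10.98 on the 3-month arrays and 10.07, 8.86 and 9.41 on the 12-month arrays. Every 12-month value lay under every 3-month value, and the mean was 2.42-fold lower at 12 months (log2 difference -1.28, SE 0.39, limma adjusted p = 0.0822). Of 8 immune markers 6 had a lower mean at 12 months, *Csf1r* (difference -1.17, SE 0.54) and *Aif1* (-0.88, SE 0.50) by the most. The rest of these 6 had differences from -0.18 (*Cd68*) to -0.0026 (*Cd3e*). Higher means were found for *Cd74* (1.72, SE 1.54) and *Cd14* (0.85, SE 0.42). None of the 8 passed the test or separated the ages, their summed signal was 28242 to 79469 at 3 months and 22289 to 78927 at 12 months, and their part in the difference of *Map4k1* was not tested. *Map4k3*, a kinase that also acts in amino acid signalling to mTORC1, had values of 10.42, 10.44 and 10.11 at 3 months and 11.27, 11.56 and 11.02 at 12 months. The groups were narrow and did not overlap. The difference of 0.96 (SE 0.25, 95% interval 0.36 to 1.56) had an adjusted p of 0.0619 in limma, the lowest of the family. *Map4k4*, which acts in TNF signalling to JNK, had the higher mean at 12 months too, but its 3-month values ran from 5.01 to 7.24, the widest spread of any member at that age, and overlapped those at 12 months (difference 1.15, 95% interval -0.19 to 2.49). With normexp, a background correction that models signal and local background and here adds an offset of 50, that difference was 0.54.

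The MAP3K tier held 10 tested members and the largest differences in both directions. *Map3k1* encodes MEKK1, which can activate the JNK and ERK branches. It gave 10.10, 8.81 and 10.78 at 3 months and 7.49, 8.52 and 7.79 at 12 months. The 12-month values were all lower, although the highest of them was close to the 3-month value of array 2. The difference was -1.96 (SE 0.54, 95% interval -3.25 to -0.67), that is a 3.90-fold lower signal, with a limma adjusted p of 0.0686. Without 3-month array 2 the difference was -2.51 and passed the adjusted test. It did not pass when any other single array was left out, and was -1.52 at its smallest. *Map3k13* encodes LZK and *Map3k12* its close relative DLK, both of them leucine zipper kinases that act on JNK and are known best from neurons. *Map3k13* was dim at 3 months, with 4.44, 6.39 and 5.83, and had 7.21, 6.99 and 7.96 at 12 months. Its groups did not overlap, and its difference was the largest upward one of the family, at 1.83 (SE 0.54, 3.56-fold, limma adjusted p = 0.0774). With the normexp correction it was 0.93. *Map3k12* had 10.10, 9.99 and 9.28 at 3 months and 10.72, 11.22 and 10.41 at 12 months. The difference was 1.00 (SE 0.34, limma adjusted p = 0.102) and was 0.86 with normexp. These 2 kinases had higher signals at 12 months and all 10 nerve and Schwann cell markers had lower ones. Whether the 2 patterns are related was not tested.

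The other MAP3Ks differed by less. *Map3k11*, which encodes MLK3, and *Map3k3*, which encodes MEKK3, were lower at 12 months without overlap, with differences of -0.53 (SE 0.26) and -0.46 (SE 0.22), with limma adjusted p-values of 0.200 and 0.194. *Map3k6* (ASK2) had a difference of -0.69 and *Map3k14* (NIK, the kinase of non-canonical NF-κB signalling) of -0.34, and for both the highest 12-month value lay within the 3-month range. *Map3k8* (TPL2, which activates MEK1 in inflammatory signalling) had a difference of 0.75 with overlapping groups. *Map3k4* (MEKK4) and *Map3k7* (TAK1, which relays cytokine signals to JNK and p38) had differences of -0.04 and 0.05, with 95% intervals of -0.68 to 0.59 and -0.65 to 0.75. *Map3k4* had the narrowest 3-month values of the tested members (SD 0.029), and its difference turned above 0 without 12-month array 1 (0.07) or array 3 (0.07). That of *Map3k7* turned below 0 without 12-month array 3 (-0.10) or 3-month array 1 (-0.14), and with normexp.

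The bases before the annotated start of *Map3k13* and *Map3k1* are shown because these genes had the largest difference in each direction. RefSeq promoters of the GRCr8 assembly were given for 28 of the 34 members. The 250 bases that end at the start of *Map3k13* lie at chr11:92739664-92739913 on the minus strand, and those of *Map3k1* at chr2:45148019-45148268, also on the minus strand. Both are written 5′ to 3′ along the gene, and capitals mark matches to a motif searched on both strands.

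Map3k13: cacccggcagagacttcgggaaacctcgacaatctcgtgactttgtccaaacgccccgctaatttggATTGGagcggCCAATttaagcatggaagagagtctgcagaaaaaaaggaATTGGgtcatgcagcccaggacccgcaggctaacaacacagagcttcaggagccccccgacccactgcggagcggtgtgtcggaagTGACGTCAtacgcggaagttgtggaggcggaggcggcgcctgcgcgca

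Map3k1: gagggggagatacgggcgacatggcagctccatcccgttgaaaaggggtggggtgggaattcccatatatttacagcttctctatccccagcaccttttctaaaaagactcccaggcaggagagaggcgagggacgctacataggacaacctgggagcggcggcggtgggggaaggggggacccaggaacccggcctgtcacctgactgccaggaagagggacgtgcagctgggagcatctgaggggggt

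The capitals in *Map3k13* are a cAMP response element, TGACGTCA, that begins 48 bases before the start, and 3 CCAAT boxes (CCAAT or ATTGG), which begin 183, 173 and 134 bases before it. In *Map3k1* none of the motifs searched was found. Among the 28 members the cAMP response element was found in 2 (*Map3k13* and *Mapk10*), against 2.69% of 9175 promoters of tested genes and 1.59% of all 33469 promoters of that length. The AP-1 motif TGANTCA was found in 2 (*Map2k4* and *Map3k8*; 5.03% and 6.34%), the CCAAT box in 10 (36.2% and 34.0%) and the GC box GGGCGG in 20 (51.2% and 30.5%). No match of one motif overlaps a match of another in the sequences shown. A match describes these letters and not the binding of a factor.

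**Figure D2:**
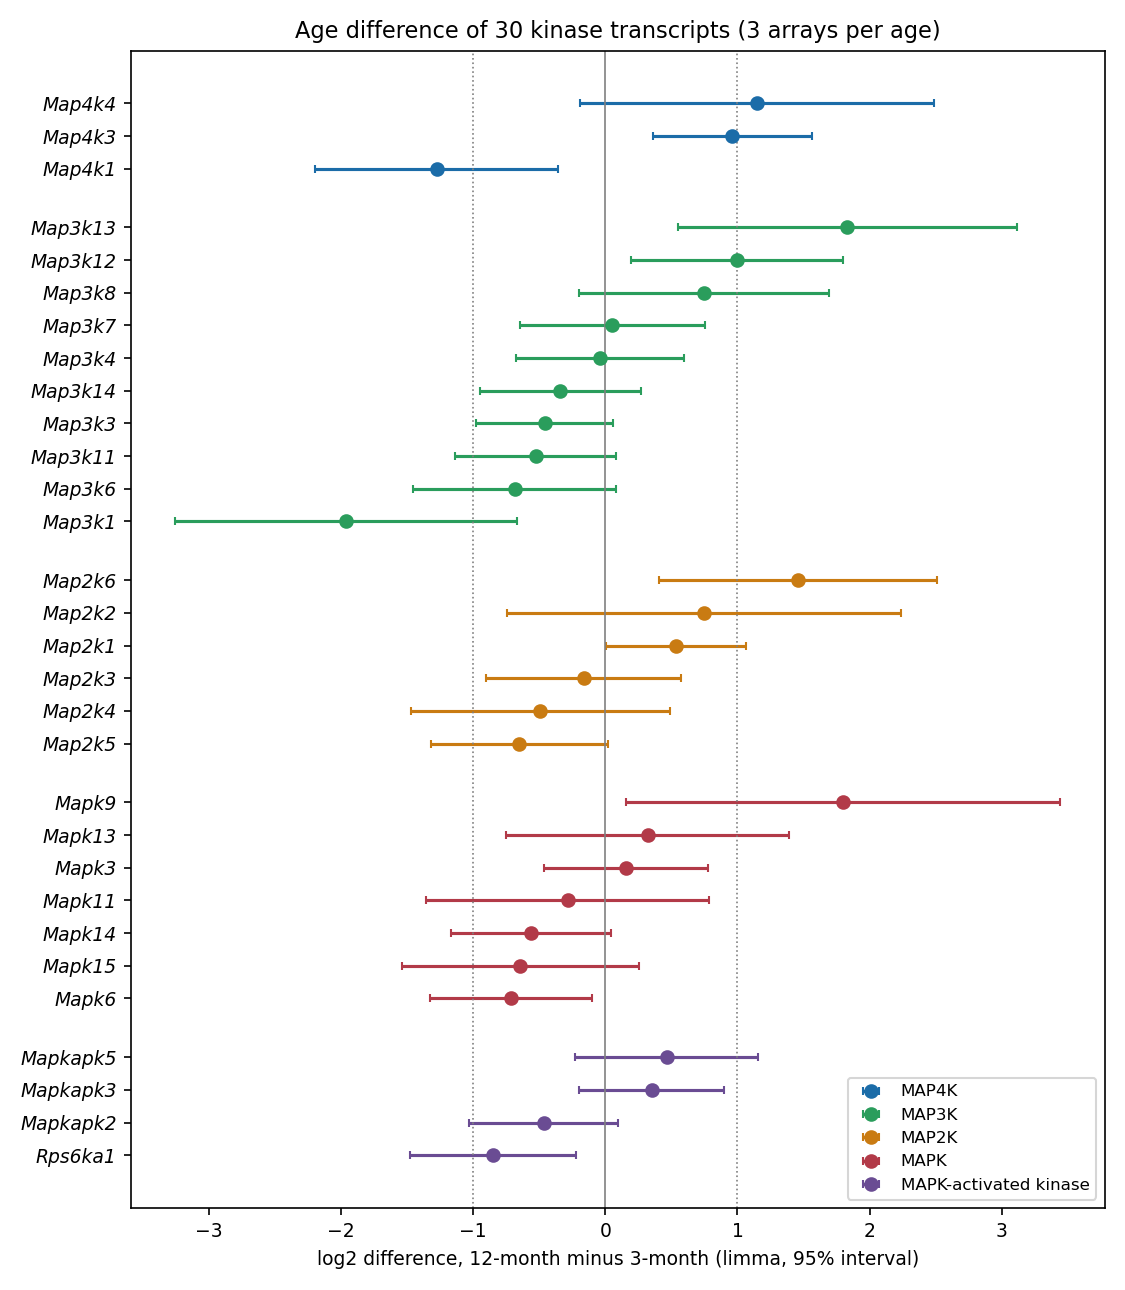
Log2 difference between 12-month and 3-month islets for the 30 tested kinase transcripts, with 95% intervals from limma, coloured by tier. Dotted lines mark a 2-fold difference in either direction. The intervals of 10 genes leave out 0 before adjustment for the number of probes. Over all 11189 tested genes, 3419 had an unadjusted limma p under 0.05. No adjusted p of the kinases was under 0.05.

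Of 7 MAP2Ks with a probe, 6 were tested and 3 of them had a higher mean at 12 months. *Map2k6* encodes MKK6, an activator of p38. Its signal was 6.16, 6.43 and 4.86 at 3 months and 7.48, 6.97 and 7.37 at 12 months. All 12-month values were higher, and 3-month array 3 lay well under the other two. The difference was 1.46 (SE 0.44, 2.75-fold, limma adjusted p = 0.0820). It was 0.84 with normexp. *Map2k5* encodes MEK5, the activator of ERK5, and had values of 12.39, 11.75 and 11.74 at 3 months and 11.06, 11.43 and 11.44 at 12 months. The groups did not overlap, and the difference was -0.65 (SE 0.28, limma adjusted p = 0.163), with -0.66 at a second probe. *Map2k1* encodes MEK1, an activator of the ERK branch, and its signal was high over background on all arrays. The 3-month values of 13.40, 13.65 and 13.28 lay under the 12-month values of 13.98, 14.01 and 13.93, which were close to each other (SD 0.040). The difference was 0.53 (SE 0.22, limma adjusted p = 0.152), and 0.22 with the arrays shifted to a common 75th percentile. *Map2k2* (MEK2) had a difference of 0.75 with a 95% interval of -0.74 to 2.24, and its 3-month array 3 and 12-month array 2 lay far under the rest of their groups. *Map2k4* (MKK4, an activator of JNK and p38) had a difference of -0.49 and *Map2k3* (MKK3, an activator of p38) of -0.16, both with overlapping groups. The sign of *Map2k3* turned without 3-month array 2 (0.02). *Map2k7* (MKK7) was well above background on 0 of 6 arrays and was not tested.

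The MAP kinases themselves had 10 probes, of which 7 could be tested. *Mapk3*, which encodes ERK1, gave 16.70, 16.69 and 17.23 at 3 months and 16.87, 17.24 and 16.97 at 12 months. The groups overlapped, and the difference of 0.16 (SE 0.26, limma adjusted p = 0.693) turned to -0.25 with the 75th percentile shift. The 95% interval of -0.46 to 0.78 leaves out a 2-fold change in either direction.

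Among the JNKs, *Mapk9* (JNK2) was tested and *Mapk10* (JNK3) was not. *Mapk9* gave 3.94, 5.78 and 5.40 at 3 months and 6.38, 6.01 and 8.13 at 12 months. The groups did not overlap, although the gap between the highest 3-month and the lowest 12-month array was small beside the spread within either age. At 12 months it had the largest SD of the tested members. The difference was 1.80 (SE 0.69, 3.48-fold, 95% interval 0.16 to 3.45, limma adjusted p = 0.130). Its signal was dim, and the difference was 0.92 with normexp and 1.15 without 12-month array 3. *Mapk10* gave 2.14, 2.09 and 2.13 at 3 months and 2.92, 3.33 and 4.41 at 12 months and was on none of the arrays well above background.

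Of the p38 kinases, 3 of 4 could be tested. *Mapk14*, which encodes p38α, gave 14.39, 14.78 and 14.93 at 3 months and 14.14, 14.31 and 13.95 at 12 months. All 12-month values lay under all 3-month values, and the difference was -0.56 (SE 0.25, 1.48-fold lower, limma adjusted p = 0.175). It was -0.91 with the 75th percentile shift. *Mapk11* (p38β) gave 5.36, 5.59 and 5.75 at 3 months and 5.31, 4.38 and 6.14 at 12 months. It was well above background on all 3-month arrays and on 2 of the 12-month arrays. Its difference of -0.29 had an interval of -1.35 to 0.78 and turned to 0.16 without 12-month array 2 and to 0.02 with normexp. *Mapk13* (p38δ) gave 4.19, 4.05 and 4.20 at 3 months and 3.80, 4.11 and 5.49 at 12 months, and was well above background on only 1 of the 12-month arrays. The lowest log2 signal of any probe well above background was 2.89 to 3.17 on the 3-month arrays and 4.26 to 5.13 on the 12-month arrays. The difference of *Mapk13*, 0.32, became -0.19 without 12-month array 3 and -0.39 with the 75th percentile shift. *Mapk12* (p38γ) gave 2.04, 2.09 and 2.99 at 3 months and 2.02, 2.02 and 2.02 at 12 months, and was not well above background anywhere.

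Both atypical MAP kinases tested had lower means at 12 months. *Mapk6*, which encodes ERK3, gave 10.30, 10.00 and 10.18 at 3 months and 9.33, 9.81 and 9.20 at 12 months. The groups did not overlap, and the difference was -0.71 (SE 0.26, limma adjusted p = 0.117). *Mapk15* (ERK8) had a difference of -0.64 (95% interval -1.54 to 0.25) with overlapping groups.

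Among the kinases that MAP kinases activate, the mean at 12 months was lower for *Rps6ka1* and *Mapkapk2* and higher for *Mapkapk3* and *Mapkapk5*. *Rps6ka1* encodes RSK1, a kinase that ERK activates. It gave 13.05, 12.74 and 12.98 at 3 months and 12.09, 11.73 and 12.41 at 12 months. Every 12-month value was lower, and the mean was 1.80-fold lower (difference -0.85, SE 0.26, limma adjusted p = 0.0869). With the 75th percentile shift the difference was -1.11 and passed the adjusted test. *Mapkapk2* encodes MK2, a target of p38. Its values were 12.53, 12.40 and 12.89 at 3 months and 12.16, 12.10 and 12.16 at 12 months. The 12-month values were nearly equal (SD 0.036) and all lower, with a difference of -0.47 (SE 0.24, limma adjusted p = 0.213), which was -0.71 with the 75th percentile shift. *Mapkapk3*, which encodes the related MK3, was higher without overlap, by 0.35 (SE 0.23, limma adjusted p = 0.322). *Mapkapk5* (MK5, a partner of ERK3) had a difference of 0.46 with overlapping groups, and of 0.34 at a second probe.

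Close relatives were also set against each other within each array, for 5 pairs that were chosen after their values had been seen, so that the changes are a description with no test. The log2 ratio of *Map4k3* to *Map4k1* was higher at 12 months by 2.24, that of *Map2k6* to *Map2k3* by 1.63 and that of *Mapkapk3* to *Mapkapk2* by 0.82, and the ages did not overlap in these 3. The ratio of *Map3k13* to *Map3k12* changed by 0.84 and that of *Map2k1* to *Map2k2* by -0.21, both with overlapping groups. With normexp the change of *Map2k6* to *Map2k3* was 1.03.

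**Figure D3:**
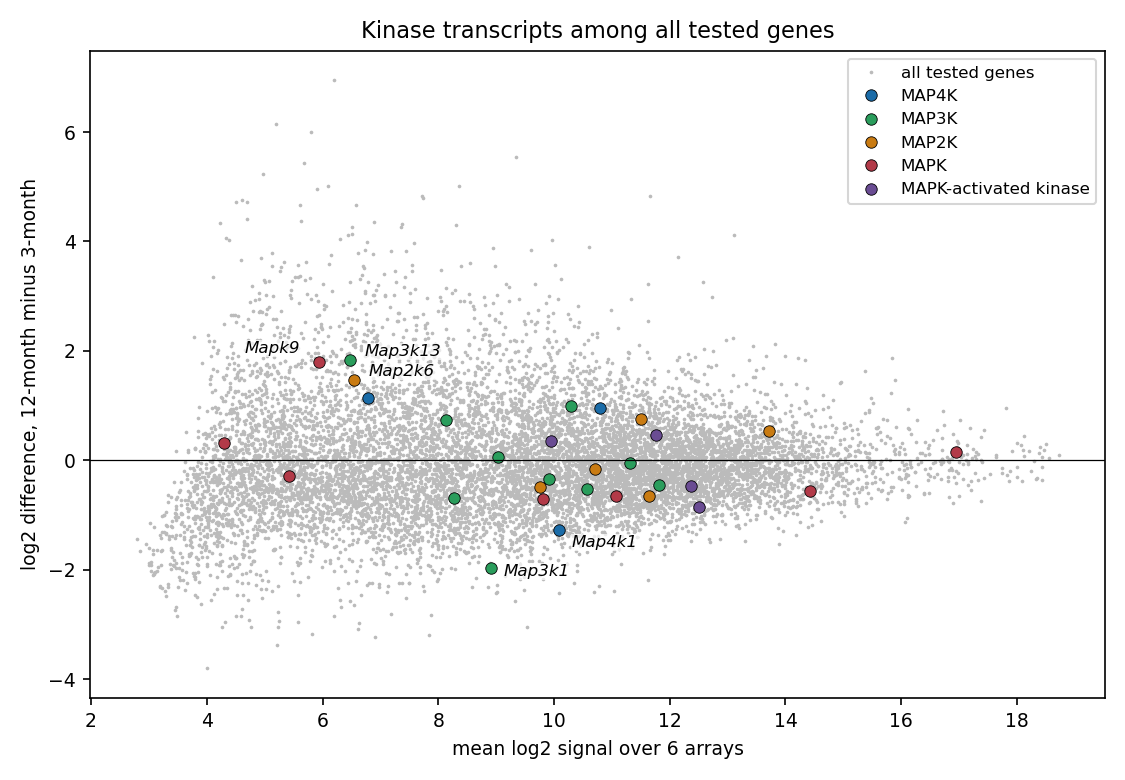
Mean log2 signal over 6 arrays against the log2 difference between 12-month and 3-month islets, for all 11189 tested genes in grey and the 30 kinases in colour by tier. The kinases lie within the cloud of all genes. *Mapk9*, *Map3k13* and *Map2k6*, the 3 with the largest upward differences, have mean signals of 5.94, 6.47 and 6.55, toward the dim side, where differences are wider for all genes.

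Differences were wider among dim probes. The 15 dimmer members, with a mean log2 signal up to 10.19, had a median absolute difference of 0.71, and the 15 brighter ones of 0.53, while over all genes on the same sides of that level it was 0.71 and 0.41. The difference was above 0 for 8 of the dimmer and for 6 of the brighter members. Among tested members, the median SD within an age was 0.38 for 3 months (0.029 for *Map3k4* to 1.13 for *Map4k4*). For 12 months it was 0.30 (0.036 for *Mapkapk2* to 1.13 for *Mapk9*). One array of each age lay apart more often than the others. Among the 3 arrays of its age, 12-month array 2 was farthest from the group mean for 15 of 30 members, and 3-month array 3 for 14 of 30. With normexp, whose offset draws dim signals together, the 4 largest upward differences were smaller, at 0.92 for *Mapk9*, 0.93 for *Map3k13*, 0.84 for *Map2k6* and 0.54 for *Map4k4*. The large downward ones stayed at -1.66 for *Map3k1* and -1.17 for *Map4k1*. The study's threshold then called those 2 members alone, both lower. The share of all genes that it called with normexp, in either direction, is not given here.

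**Figure D4:**
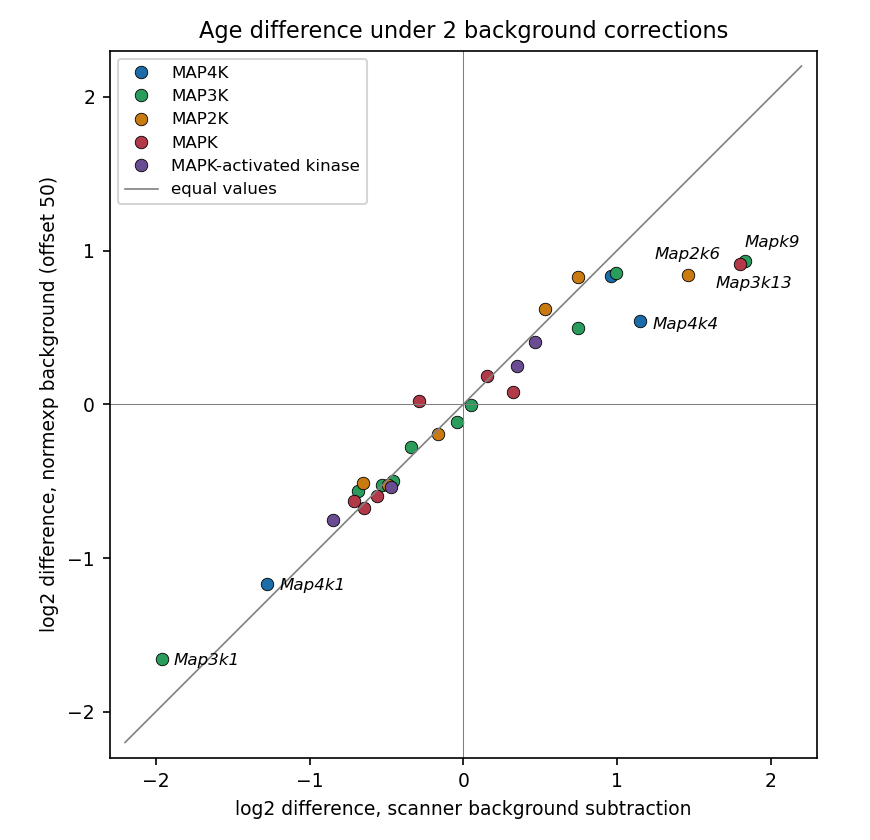
Log2 difference between 12-month and 3-month islets under the scanner's own background subtraction (x axis) against that under normexp with an offset of 50 (y axis), for the 30 tested kinases. The line marks equal values, and *Mapk9*, *Map3k13*, *Map2k6* and *Map4k4* lie far under it, while *Map3k1* and *Map4k1* lie close to it.

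Other genes of the pathway, outside the naming rule, were described from 4 lists. Of 59 tested genes in these lists, 7 passed the adjusted test, all higher at 12 months. Of all 11189 tested genes 7.86% passed it, 546 of them higher and 333 lower. The study listed *Pak1*, *Pak2*, *Gab1*, *Dusp6*, *Ppm1a*, *Atf2* and *Creb1* in a pathway table made from the same arrays, as it did *Map3k12*. The 7 calls are therefore not independent evidence of a direction. Among 13 tested kinases of the cascade with other names, *Pak1* and *Pak2*, p21-activated kinases that act below Rac and Cdc42, rose by 2.61 (SE 0.38, limma adjusted p = 0.0150) and 2.88 (SE 0.47, limma adjusted p = 0.0204). *Pak3* had a difference of 1.39 (limma adjusted p = 0.0660).

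Among 21 scaffolds and adaptors, 1 was called. *Gab1*, a docking protein that couples receptors to ERK, rose by 2.49 (SE 0.27, limma adjusted p = 0.00648). *Tab1*, the partner of TAK1, had a difference of -0.91, *Pebp1*, an inhibitor of the ERK branch, of -0.71, and *Lamtor3*, a scaffold of MEK1 and ERK1, of 0.63, none of which passed. Of 13 phosphatases, 2 were called. *Dusp6*, which removes phosphate from ERK, rose by 2.38 (SE 0.34, limma adjusted p = 0.0149), and *Ppm1a* by 2.12 (SE 0.34, limma adjusted p = 0.0193). *Dusp1*, a phosphatase of JNK and p38, and *Ppm1b* had differences of 1.55 and 0.49 and did not pass. Of 12 transcription factors that MAP kinases act on, *Atf2*, a target of JNK and p38, rose by 3.02 (SE 0.28, limma adjusted p = 0.00437) and *Creb1* by 1.21 (SE 0.26, limma adjusted p = 0.0398). *Myc* and *Fos* had larger or similar differences, 3.79 and 3.26, with SEs of 0.99 and 1.13, and did not pass.

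The median difference was 0.48 for the other cascade kinases, -0.015 for the scaffolds, -0.22 for the phosphatases and 0.59 for the transcription factors, beside -0.10 for the MAP kinases and their upstream kinases and -0.13 for all genes. *Dusp6*, *Atf2*, *Pak2* and *Pak1* were dim at 3 months, with mean log2 signals of 3.55, 3.52, 4.16 and 5.14, and with normexp their differences were 0.68, 1.17, 1.13 and 1.30, of which that of *Dusp6* no longer passed the test. Under normexp the differences of *Gab1*, *Ppm1a* and *Creb1* were 2.25, 1.69 and 0.82. The count of 7 fell to 2 without 12-month array 1, to 2 without 12-month array 3 and to 4 without 3-month array 1. The shares of all genes called in these fits are not given here, so the fall is not set apart from that of other genes.

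**Figure D5:**
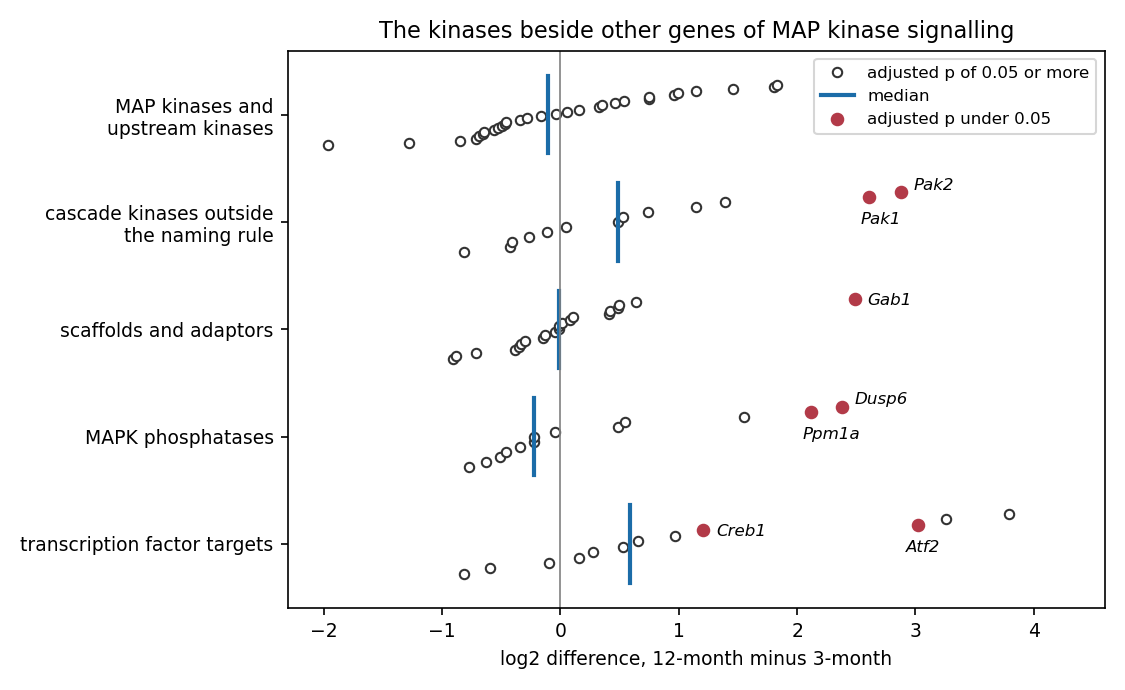
Log2 difference between 12-month and 3-month islets for the 30 tested MAP kinases and upstream kinases and for 59 tested genes in 4 lists of the same pathway. Each circle is a gene, filled where the limma adjusted p was under 0.05, and the vertical line is the median of a list. The 7 filled circles, all above 0, lie in the 4 lists, and none is a MAP kinase or upstream kinase. Over all tested genes, 546 were called higher and 333 lower.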

How the data were processed

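Total RNA of islets, which had been isolated by collagenase digestion, was hybridised to Arraystar arrays with 24684 non-control probes on 42136 spots. Per the file headers, the scanner output holds intensity that was quantified with Agilent Feature Extraction 11.0.1.1, background-subtracted and not normalised between arrays. A second deposited table gives the authors' log2 values for 12145 probes and served as an alternative. Age was taken from the labels, with 3 arrays per group. One 12-month array has no number in the labels and is called array 3.

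Spots marked as outliers were left out, and the mean log2 intensity of the remaining spots of each probe was quantile normalised. Of the probes, 17944 were well above background on at least 3 of 6 arrays, and 17941 were tested with limma 3.58.1 in R 4.3.3 (lmFit and eBayes, 12-month minus 3-month, two-sided). The probe with the highest mean signal stood for a gene. Of 15321 probes with a RefSeq mRNA accession, 14274 matched a symbol. A probe reads a short stretch of a transcript and may miss isoforms. No spot was saturated. Precision was limited by the number of arrays. Correlations between arrays of one age were 0.941 to 0.977. The fit was tested on simulated data.

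The members, the lists of other pathway genes and of markers, and the tests were chosen with earlier results of these data known. Values on each array are given for the classical MAP kinases and, in each tier, for the 2 members with the largest absolute difference among those with groups that did not overlap. Up to 4 genes are named per other list, by the smallest unadjusted p. A member and another pathway gene that this rule names are not reported here. *Map3k12* and *Map2k1* were added to those shown array by array after their values were seen. The deviations of same-numbered arrays from their group means correlated at -0.01, -0.31 and -0.26, so that the numbers were not taken as pairs. The alternatives were another scaling (75th percentile), normexp, the authors' table, other filters on dim probes, other variance models and array weights, other tests, pairing by number, subsets of arrays and leaving out each array.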

Additional observations from a re-analysis of the deposited data

How the results depend on the processing

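Of 30 kinases, the adjusted threshold called 1 with the 75th percentile shift (*Rps6ka1*), 1 with normexp (*Map2k1*), 1 without a filter on dim probes and 1 when all 6 arrays had to be well above background (*Map4k3* in both), 2 with an intensity trend and robust variances (*Map4k3*, *Rps6ka1*), 6 with array weights (these 2 with *Map2k6*, *Map3k1*, *Map3k13* and *Mapk6*), 6 at an adjusted p under 0.1, and 0 to 1 when 1 array was left out. With the replicate number as a block it called 0. The array weights were 3.63 for 12-month array 1 and 0.55 to 0.94 for the other arrays. The study's threshold called 2 with normexp, 2 with a replicate block on the numbered pairs, 3 on the 4 arrays whose names share an ending, 1 by a paired t-test on log2 values, and 4 to 7 when 1 array was left out. Of the other pathway genes, 11 were called with normexp, 12 with an intensity trend and 15 with array weights. At an adjusted p under 0.1 there were 14, an unpaired t-test called 3, and leaving out 1 array gave 2 to 8. A replicate block with 3 pairs, one on the numbered pairs, the 4 arrays and the paired t-test each called 0 of them. The shares of all genes called under these alternatives are not given here, so these counts do not set the kinases or the other pathway genes apart from other genes. The median difference of the kinases was -0.29 after the shift to the 75th percentile, -0.18 under array weights, -0.18 with a replicate block on the numbered pairs, -0.20 on the 4 arrays and -0.15 to -0.015 when 1 array was left out.

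No called direction reversed. Of uncalled ones, *Mapk13* was -0.39 and *Mapk3* -0.25 with the 75th percentile shift, *Map3k7* -0.0076 and *Mapk11* 0.022 with normexp, and *Map3k7* -0.058 with array weights. On the numbered pairs *Map2k2* was -0.20, *Map3k4* 0.084 and *Mapk13* -0.16. On the 4 arrays *Map2k3* was 0.030, *Map3k4* 0.059, *Map3k7* -0.29 and *Mapk13* -0.17. When 1 array was left out, *Map3k4* ranged from -0.26 to 0.068, *Map3k7* from -0.14 to 0.24, *Mapk11* from -0.72 to 0.16, *Mapk13* from -0.19 to 0.65 and *Map2k3* from -0.44 to 0.021. The cause was not tested. The other 23 tested kinases kept their direction in every alternative that was run. Dim members such as *Mapk11* and *Mapk13* are limited by their signal over background at 12 months.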
